A study of Mus musculus with 235 samples.

Results

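BALB/cJ is an albino inbred mouse strain, and the response of its liver to isoniazid was read from 8 of the 235 arrays in a survey of 31 inbred strains. The 8 arrays were chosen by the strain and treatment in the sample labels: 4 are from BALB/cJ animals given isoniazid and 4 from BALB/cJ animals given the vehicle, sterile water. All animals were females, 8 to 10 weeks of age when dosing began. Isoniazid was given at 100 mg/kg by oral gavage, daily for 3 days, and left liver lobe RNA was collected 24 h after the last dose, so the data hold 1 dose and 1 time point. The labels name no transgene, deletion or second agent in any group. The submitters coded BALB/cJ among 13 strains with steatosis, the storage of fat droplets in liver cells. The comparison group is the other 227 arrays, from 30 strains, of which 12 are coded with steatosis and 18 without. Each array measured 1 animal, and the values are RMA summaries on the log2 scale. A difference is given as isoniazid minus vehicle in log2 units, and a level is a log2 value.

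Isoniazid is a tuberculosis drug that the liver acetylates, hydrolyses and oxidises, and liver injury and fatty change are known side effects. Liver cells secrete most plasma proteins, which enter the endoplasmic reticulum through the Sec61 translocon, receive sugar chains from the oligosaccharyltransferase, are folded by chaperones and disulfide isomerases, and leave and return in vesicles coated with COPII and COPI. When the folding load is high, the unfolded protein response raises genes of this route. Interferon-induced genes are a separate programme against viruses, kept at a basal level in liver by signalling through STAT proteins.

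The 8 arrays correlated with each other at Pearson r of 0.982 to 0.994 across genes, with array medians of 3.99 to 4.07. No array of BALB/cJ was among the 21 of the series with a narrow spread of log2 values. Mean levels of the 10 measured hepatocyte markers, such as albumin, lay between 13.18 and 13.28 in vehicle animals and between 13.20 and 13.30 in isoniazid animals, so both groups carry the labelled tissue. The 3′ minus 5′ differences of the actin and pyruvate carboxylase control transcripts, a measure of RNA integrity, gave p = 0.314 and 0.543 between the groups (two-sided exact permutation tests). The 3′ control of Gapdh was higher in the 4 isoniazid animals, 12.58 ± 0.08 against 12.23 ± 0.13 (SD, n = 4; exact permutation p = 0.0286, the smallest possible, and 0.143 after adjustment over 5 array measures). The vehicle arrays were scanned on 4 dates and the isoniazid arrays on 3 others, so no value within a date exists. With scan date as a term in the fit of all strains, 221 genes passed for the effect described next, 198 of them shared with the fit without it. The labels do not say whether animals shared a cage or dosing day. In tissue samples, a change in RNA per cell and a change in the share of a cell type cannot be told apart.

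Isoniazid raised 168 genes in BALB/cJ liver and lowered 114, of 18146 tested. These are 0.926% and 0.628% of all genes, and 1.55% in either direction (limma on animals as replicates, adjusted p under 0.05). The largest rises were in Psat1 of serine synthesis, the lipid droplet gene Cidec and Pgm3 of amino sugar synthesis, and smaller rises included genes of the secretory route. Those that fell were led by the desaturase Scd1, the steroid enzyme Hsd3b5, the lipogenic gene Thrsp and interferon-induced genes. In 270 of the 282 the values of the 4 isoniazid and 4 vehicle animals did not overlap, against 2000 of all genes (11.0%). The median change was 0.58 among those that rose and -0.78 among those that fell, beside -0.01 over all genes. At least a 1.5-fold change was reached by 84 that rose and 82 that fell.

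The number of calls depended on single animals, most of all on isoniazid animal 2. Without it 94 genes passed, 57 higher and 37 lower, and 90 of these were among the 282. The counts were 179, 182 and 170 without vehicle animals 2, 3 and 4 in turn and 159 without isoniazid animal 4. Without the narrow-spread arrays of other strains, which enter the shared estimate of the spread, 655 genes passed, 380 higher and 275 lower, including the 282. Centring each array on its median left 177 calls. A fit of the 8 BALB/cJ arrays alone called 291, of which 149 were among the 282 and 40.5% were higher, against 59.6% of the 282.

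In the other 30 strains most of these genes moved the same way. Of the 168 genes that rose, 162 had a mean effect above 0 in the other strains, and 136 also passed there as higher. Of the 114 that fell, 103 had a mean below 0 and 72 passed as lower. Over the other 30 strains, with the strain as replicate, 3427 genes passed (18.9%), 1746 higher (9.62%) and 1681 lower (9.26%). The median mean effect in the other strains was 0.20 for the genes that rose in BALB/cJ and -0.21 for those that fell. The genes were chosen by their BALB/cJ effect, so smaller means elsewhere follow in part from that choice. The 1746 genes that rose in the other strains had medians of 0.19 in BALB/cJ and 0.16 in the others. The 1681 that fell had -0.15 and -0.17. Of the 1746, 82.3% were above 0 in BALB/cJ beside 47.7% of all genes. Of the 1681, 79.4% were below 0 beside 52.3%. The BALB/cJ effect was the highest of the 31 strains for 21 of the genes that rose in BALB/cJ and the lowest for 42 that fell there, while either extreme held for 3.38% of all genes. These genes were called on the same effect that is ranked, so the counts describe and test nothing. The effects of BALB/cJ and the mean of the other strains were correlated across the 18146 genes (Pearson r = 0.48), though genes are no independent replicates. The single strains with the closest effects were NZW/LacJ, DBA/2J and LG/J, with r of 0.54, 0.51 and 0.50, and all 3 are coded with steatosis. Next came PWK/PhJ and SM/J, coded without it, with r of 0.38 and 0.37. The lowest r were those of RIIIS/J without steatosis (-0.10) and of NOR/LtJ and CBA/J with it (-0.08 and -0.01). By number of genes passing, BALB/cJ ranked 10th of the 31 strains.

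**Figure D1:**
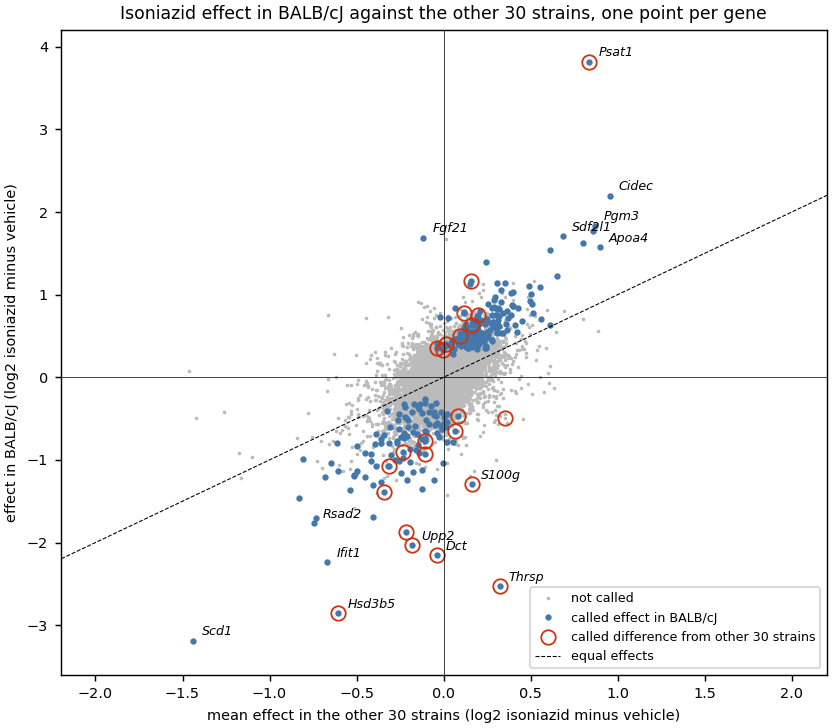
Each point is 1 of 18146 genes, with the mean effect over the other 30 strains on the x axis and the BALB/cJ effect on the y axis, both as log2 isoniazid minus vehicle. Blue points passed in BALB/cJ (282), red circles mark genes whose effect differed from the other strains (23), and the dashed line marks equal effects. Psat1 at 3.82 and Scd1 at -3.19 are the ends of the BALB/cJ axis.

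Psat1, the aminotransferase of serine synthesis, showed the largest rise. Its level was 3.04, 3.17, 2.10 and 2.87 in the vehicle animals and 5.54, 8.04, 5.95 and 6.95 in the isoniazid animals. Every isoniazid animal was above every vehicle animal, and isoniazid animal 2 was the highest. The difference is 3.82 (SE 0.70, adjusted p = 8.99e-05). The vehicle mean of 2.80 lies below the array medians and was not shown to be above background, so no fold is given. Other strains ran from -2.06 to 4.02 with a mean of 0.84, so BALB/cJ stood 3rd of 31, and its difference from the mean of the others was 2.98 (adjusted p = 0.0431). The call of that difference was lost without any of 6 single animals, and without isoniazid animal 2 it was 2.51 (adjusted p = 0.52, limma), while the effect itself still passed there (3.35, adjusted p = 0.00601). Of the 16 measured genes of serine, glycine and one-carbon metabolism, Psat1 alone passed, beside 1.55% of all genes. The median over the list was 0.02. The second probe set of Psat1 gave 2.50.

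Cidec, which fuses lipid droplets into larger ones, was at 5.69, 5.70, 6.25 and 5.95 in vehicle and at 7.52, 8.96, 7.97 and 7.95 in isoniazid animals. The groups did not overlap, and the rise was 4.59-fold (2.2, SE 0.37, adjusted p = 1.13e-05). Pgm3, a mutase on the way to UDP-N-acetylglucosamine, the sugar donor of N-glycans, rose 3.57-fold (1.84, SE 0.26, adjusted p = 1.6e-07), from 6.30, 6.04, 6.17 and 5.94 to 7.74, 8.10, 7.76 and 8.18. The isoniazid animals were tighter for Pgm3 than for Psat1, with SDs of 0.23 and 1.12.

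Cgref1, which encodes a secreted protein with calcium-binding EF-hands, rose by 1.77, with the isoniazid animals at 6.69, 7.86, 6.07 and 7.34 and the vehicle animals between 5.09 and 5.34. Apoa4, an apolipoprotein of triglyceride-rich particles, rose by 1.58 from levels of 10.72 to 11.27 to levels of 11.92 to 12.98. The unnamed gene 2010003K11Rik rose by 1.63 from the lowest vehicle level of the 31 strains, 5.98 ± 0.35 (SD, n = 4) against a mean of 7.26 in the others. Atf5, a transcription factor that responds to amino acid and mitochondrial stress, also started from the lowest vehicle level of the 31 strains, 10.74 ± 0.16 (SD, n = 4) against a mean of 11.55. It rose to 11.89, 12.10, 11.52 and 12.12, by 1.17 (SE 0.17, adjusted p = 4.69e-07), the highest effect of the 31 strains.

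Fgf21, a liver hormone of the fasting and stress responses, had vehicle levels of 6.17, 6.36, 6.44 and 6.27, again the lowest mean of the 31 strains, against 8.14 in the others. The isoniazid animals were at 7.60, 8.40, 7.55 and 8.46. The groups do not overlap, and the change of 1.69 (SE 0.49) passed at an adjusted p of 0.0492. That call was lost on leaving out any of 7 of the 8 animals, isoniazid animal 3 being the exception. The effect was the highest of the 31 strains, but its difference from the mean of the others, 1.81, did not pass (adjusted p = 0.127). Among the 23 measured genes of the integrated stress response, Atf5 and Fgf21 rose, beside 0.926% of all genes. The median of the list was -0.06. Trib3, a stress-induced pseudokinase, was at 8.88 to 9.20 in isoniazid and 7.72 to 8.79 in vehicle animals without passing (0.85, adjusted p = 0.154).

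Sdf2l1, Tubb2a, Tkfc and Cyp3a44 complete the 12 largest rises. Sdf2l1, a partner of the chaperone BiP, rose by 1.71, the tubulin gene Tubb2a by 1.54 and Tkfc, which phosphorylates glyceraldehyde from fructose, by 1.22. In each of these 3 the highest animal was isoniazid animal 2, at 9.0, 9.90 and 10.20, and without it the changes were 1.36, 1.13 and 0.99 and no longer passed. Cyp3a44, a cytochrome P450, rose by 1.39 with isoniazid animals at 8.90 to 9.47 and vehicle animals at 7.61 to 7.97, and its call (adjusted p = 0.0344) was lost without any 1 of the 8 animals.

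**Figure D2:**
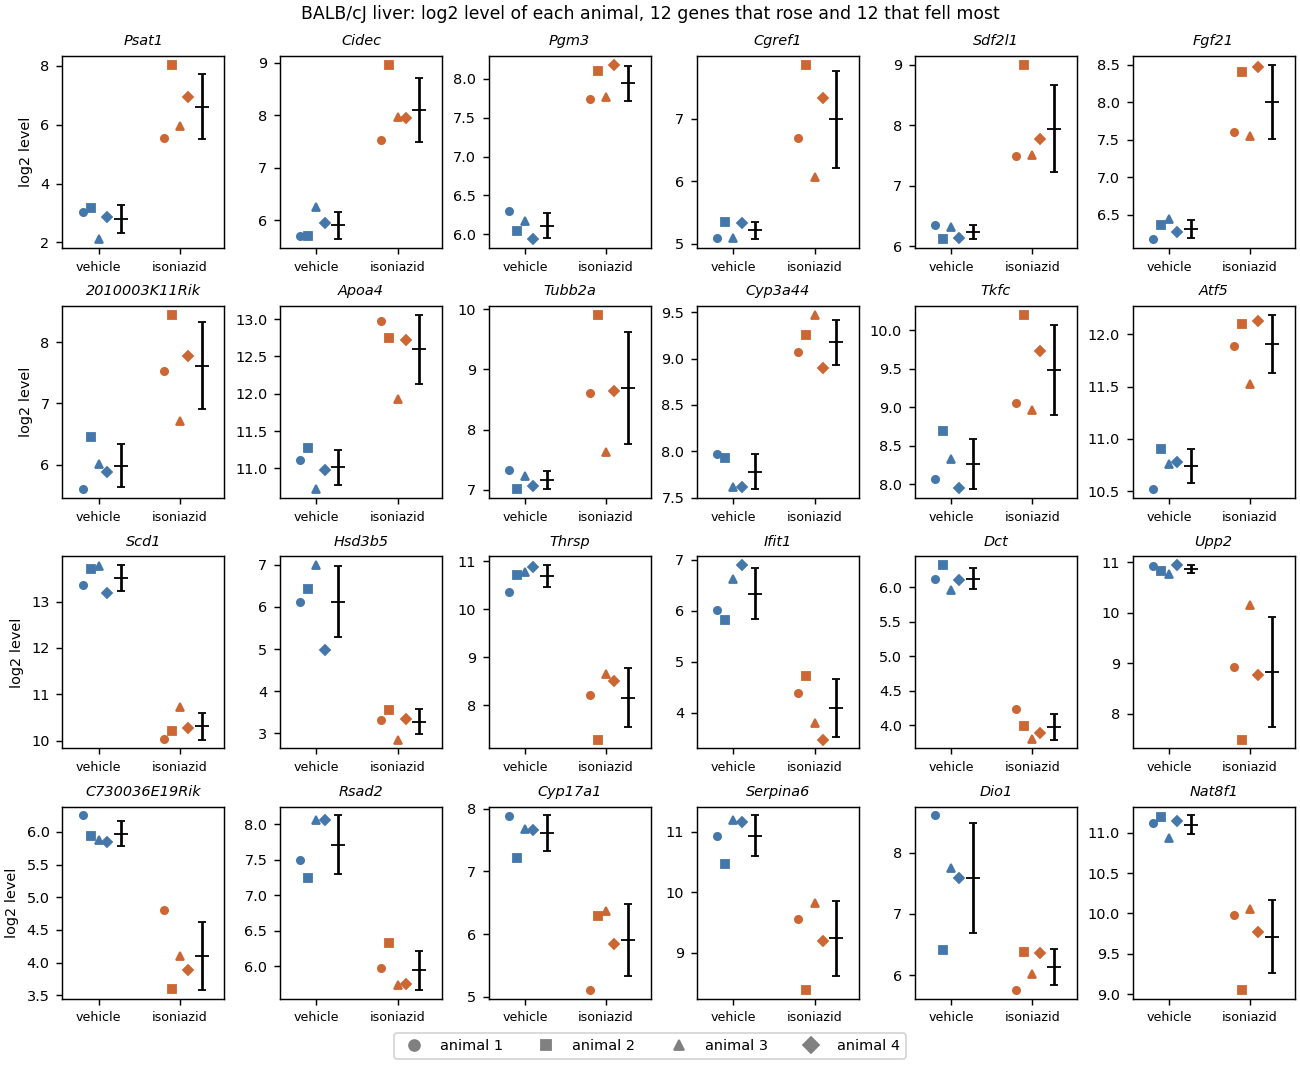
Each panel shows 1 gene, with the log2 level of the 4 vehicle (blue) and 4 isoniazid (orange) animals, the marker shape giving the animal number and the black bar the mean ± SD. The 12 genes in the upper rows rose and the 12 in the lower rows fell, and in each panel the 2 groups do not overlap, as the rule for choosing these genes required.

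Many genes of protein folding in the endoplasmic reticulum rose. Of 24 measured genes of folding and the unfolded protein response, 9 rose and 0 fell, beside the 0.926% of all genes that rose. All gene lists in these results were chosen with earlier results of these data known, so counts over them describe and test nothing. Of the 24, 22 were above 0, and the median change was 0.51 beside -0.01 over all genes and 0.13 for the same genes in the other 30 strains. BALB/cJ had the fourth highest median of the 31 strains. The 9 are Sdf2l1, the disulfide isomerases P4hb, Pdia3, Pdia4 and Pdia6, the lectin chaperone Canx, the co-chaperone Dnajc3, and Sec61b and Ssr1 of the translocon.

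P4hb had the smallest p of the list. It rose from 11.79, 12.16, 11.99 and 11.85 to 12.64, 12.83, 12.53 and 12.83 (0.76, SE 0.11, adjusted p = 1.6e-07), with no overlap of the groups. Pdia6 rose from between 8.34 and 8.55 to 9.12, 9.74, 9.13 and 9.52 (0.92, adjusted p = 0.000306), but its second probe set gave -0.01 and the mean of both missed the threshold (0.45, adjusted p = 0.12). Canx rose by 0.50 (adjusted p = 0.000864), with isoniazid animals at 10.48 to 10.75 and vehicle animals at 10.00 to 10.22. The central chaperone of the response, Hspa5 (BiP), had a change of 0.38 that did not pass (adjusted p = 0.646), and the sensors Ern1 and Atf6 were at 0.06 and 0.11.

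The promoters of 3 of these genes carry the element through which the unfolded protein response acts on chaperone genes, and they are shown as sequence context for this group. The windows are from RefSeq (GRCm38.p6) and run from 250 bases before to 50 after a gene's start, 5′ to 3′ on the gene's strand, with matches to the endoplasmic reticulum stress element, CCAAT and CCACG with 9 bases of any kind between them, in capitals. Both strands were searched. The element contains the common CCAAT box. Pdia6 is read from chr12:17266339-17266638 on the plus strand, Canx from chr11:50325624-50325923 on the minus strand and Dnajc3 from chr14:118937682-118937981 on the plus strand.
Pdia6: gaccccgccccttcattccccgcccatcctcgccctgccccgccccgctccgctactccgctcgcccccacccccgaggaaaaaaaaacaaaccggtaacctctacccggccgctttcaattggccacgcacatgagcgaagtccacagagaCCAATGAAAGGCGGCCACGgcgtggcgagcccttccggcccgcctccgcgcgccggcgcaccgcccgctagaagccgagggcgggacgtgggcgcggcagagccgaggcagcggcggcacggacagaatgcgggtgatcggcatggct
Canx: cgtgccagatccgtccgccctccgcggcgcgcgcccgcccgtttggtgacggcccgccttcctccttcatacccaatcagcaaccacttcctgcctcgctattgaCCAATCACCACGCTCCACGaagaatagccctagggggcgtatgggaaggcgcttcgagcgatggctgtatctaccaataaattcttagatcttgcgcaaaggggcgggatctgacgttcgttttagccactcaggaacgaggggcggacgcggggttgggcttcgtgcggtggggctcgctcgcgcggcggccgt
Dnajc3: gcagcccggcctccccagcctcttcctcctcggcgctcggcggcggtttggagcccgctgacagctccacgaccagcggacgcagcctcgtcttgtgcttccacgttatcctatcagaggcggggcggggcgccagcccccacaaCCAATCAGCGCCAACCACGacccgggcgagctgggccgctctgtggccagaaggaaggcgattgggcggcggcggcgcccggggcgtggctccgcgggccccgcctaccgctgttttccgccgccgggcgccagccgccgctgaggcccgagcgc
The element was in the windows of 3 of the 9 list members that rose and of 5 of the 12 members with a window that did not pass, among them Hspa5, Hsp90b1 and Calr. It was in 39 of 32851 promoter windows of the table (0.119%). A match describes the letters of the window and shows no binding.

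Genes on either side of folding were looked at in lists added after their values had been seen, so these counts describe and test nothing. Of 24 genes of the translocon, the signal recognition particle and signal peptide removal, 11 rose and 0 fell, with a median of 0.42. Over all genes 0.926% rose and 0.628% fell. Of the 11, Sec61b and Ssr1 were already counted among the folding genes. Sec61a1, the pore of the translocon, rose from 9.52, 9.67, 9.62 and 9.53 to 10.02, 10.68, 10.24 and 10.42 (0.75, SE 0.13, adjusted p = 3.53e-05). Its subunit Sec61b rose by 1.03 and Ssr4 by 0.68.

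The later stations of the secretory route showed the same direction, where 0.926% of all genes rose and 0.628% fell. Of 11 oligosaccharyltransferase genes 4 rose and 0 fell, led by Ddost (0.78) and the catalytic subunit Stt3a (0.69). Of 13 genes of the COPI coat and its small GTPases 8 rose, with Copg1 at 0.97, Arf4 at 0.80 and Cope at 0.61. Of 21 genes of the COPII coat and its cargo receptors 8 rose, with Sec24d at 0.80 and Sec13 at 0.69. None of the members of these 3 lists fell, and the medians were 0.45, 0.38 and 0.38, against 0.20, 0.13 and 0.12 for the other 30 strains.

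The size of the rise differed among the isoniazid animals. The mean level over the 24 folding genes was 9.26, 9.25, 9.27 and 9.17 in the vehicle animals and 9.48, 10.32, 9.41 and 9.76 in the isoniazid animals. The groups did not overlap, and animal 2 stood above the other isoniazid animals. Without animal 2, 4 folding genes passed (P4hb, Pdia6, Canx and Sec61b) and the list median was 0.18. The translocon list then had 5, the oligosaccharyltransferase 2, COPI 3 and COPII 4 genes that rose, with medians of 0.29, 0.38, 0.31 and 0.22. Without the narrow-spread arrays the counts were 10, 12, 5, 8 and 10.

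Some proteasome genes rose. Of 28 measured subunits and regulators 7 rose and 0 fell, beside 0.926% and 0.628% of all genes. Of the 28, 27 were above 0, beside 47.7% of all genes. The median was 0.33 against 0.16 in the other 30 strains. Psma6, a subunit of the core particle, rose from 10.73, 10.55, 10.60 and 10.69 to 10.95, 11.34, 10.96 and 11.00 (0.42, SE 0.09, adjusted p = 0.00139). Its 4 probe sets ran from -0.13 to 0.42, and their mean missed the threshold (0.20, adjusted p = 0.216, limma). Psmc3, Psmd12 and Psmd14 of the regulatory particle rose by 0.44, 0.47 and 0.53. Without isoniazid animal 2, 0 of the 28 passed by limma (16 at an unadjusted p under 0.05) and the median was 0.27. In the fit of the 8 BALB/cJ arrays alone 0 passed (21 unadjusted), and without the narrow-spread arrays 13 did.

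**Figure D3:**
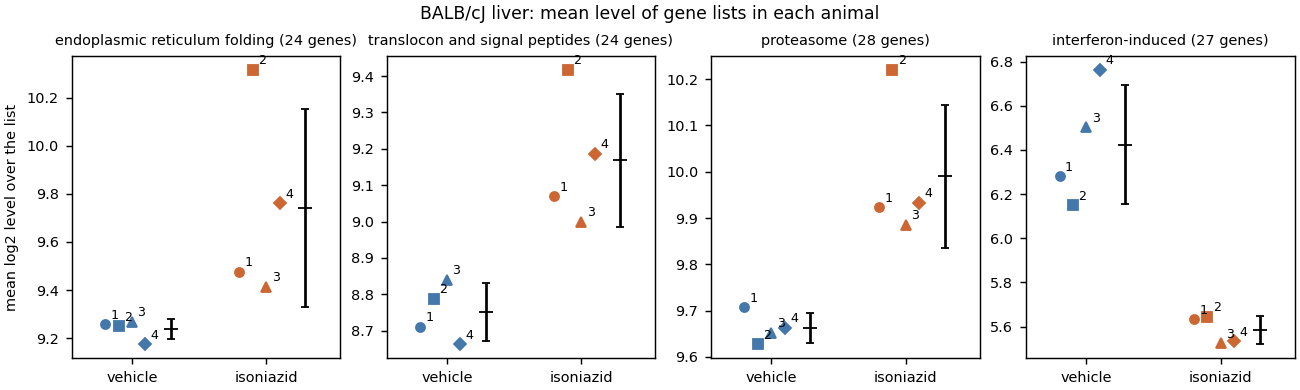
The mean log2 level over the genes of 4 lists in each BALB/cJ animal is plotted with the animal number beside each point and the mean ± SD as a black bar. Isoniazid animal 2 is the highest in the first 3 panels, at 10.32, 9.42 and 10.22, while the 4 isoniazid animals lie between 5.53 and 5.64 in the interferon panel.

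Scd1, which turns stearate and palmitate into their monounsaturated forms, showed the largest fall. The vehicle animals were at 13.36, 13.70, 13.77 and 13.18, the second highest vehicle mean of the 31 strains, and the isoniazid animals at 10.04, 10.22, 10.73 and 10.27. The groups were far apart, and the fall was 9.12-fold (-3.19, SE 0.45, adjusted p = 1.6e-07). Scd1 was lowered by a mean of -1.44 in the other strains, and the difference of -1.75 did not pass (adjusted p = 0.0989).

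Thrsp, a cofactor of fatty acid synthesis that responds to thyroid hormone and carbohydrate, fell from 10.36, 10.72, 10.78 and 10.89 to 8.21, 7.28, 8.65 and 8.51 (-2.53, SE 0.52, adjusted p = 0.000742). In the other 30 strains it had a mean of 0.32 and was above 0 in 17 of them, and BALB/cJ had the lowest effect of the 31. Its 3 probe sets ran from -2.53 to -0.03, and their mean gave -1.58, which also passed. Most other lipogenic genes did not pass, and of all genes 1.55% passed in either direction. Of 20 measured genes of fatty acid synthesis, 2 fell (Scd1 and Thrsp) and 1 rose, Elovl2, which lengthens polyunsaturated fatty acids (0.67). The call of Elovl2 was lost without any of 6 single animals, with changes of 0.60 to 0.73. Fasn, the fatty acid synthase, had a change of -0.31 (adjusted p = 0.789), and Srebf1, a regulator of lipogenesis, one of 0.02. The list median was -0.11 in BALB/cJ and 0.18 in the other strains.

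Hsd3b5, a hydroxysteroid dehydrogenase of the liver, fell from 6.11, 6.43, 6.99 and 4.98 to 3.33, 3.56, 2.85 and 3.35 (-2.85, SE 0.46, adjusted p = 5.44e-06). The isoniazid animals lie below the array medians, a level not shown to be above background, so no fold is given for Hsd3b5. Dct, an enzyme of melanin synthesis, fell by 2.15, with vehicle animals at 5.97 to 6.32 and isoniazid animals at 3.80 to 4.23. The isoniazid mean of Dct also lies below the array medians and was not shown to be above background. Upp2, a uridine phosphorylase, fell by 2.03, and its isoniazid animals were spread from 7.48 in animal 2 to 10.15 in animal 3, while the vehicle animals lay within 10.76 to 10.93. C730036E19Rik, a gene without an annotated role here, fell by 1.88 from the second highest vehicle mean of the 31 strains. Without animal 2, Upp2 was at -1.58 and just missed the threshold (adjusted p = 0.0502).

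Among the further large falls, Cyp17a1, the steroid 17-alpha-hydroxylase, and Serpina6, which encodes corticosteroid-binding globulin, were each lower by 1.70. Dio1, the deiodinase that activates thyroid hormone, was lower by 1.46, and its nearest animals were 6.41 in vehicle and 6.38 in isoniazid, so the groups barely separate. Serpina6 did not pass without isoniazid animal 2 (-1.41), Cyp17a1 did not pass without vehicle animal 1, isoniazid animal 1 or isoniazid animal 4, and Dio1 lost its call without any of 7 of the 8 animals. Nat8f1, of a family of membrane acetyltransferases, fell from 11.12, 11.20, 10.93 and 11.15 to 9.98, 9.05, 10.05 and 9.77 (-1.39, SE 0.23, adjusted p = 8.63e-06). Its second probe set gave -0.15. Of 7 measured Nat8 family genes, a list added after the values were seen, Nat8f1, Nat8f2 and Nat8f4 fell and 0 rose, and near-identical family members can share probes. Without animal 2, 1 of the 7 passed. In the fit of all 8 animals 0.628% of all genes fell.

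Interferon-induced genes were lower. Of 27 measured, 6 fell and 0 rose, beside the 0.628% of all genes that fell, and 26 were below 0. The median was -0.80 against -0.27 in the other 30 strains, and of the 31 strains CBA/J alone had a lower median. The 6 are Ifit1, Rsad2, Iigp1, Usp18, Oasl1 and Bst2.

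Ifit1, which binds viral RNA, was at 6.02, 5.82, 6.62 and 6.89 in vehicle and 4.39, 4.73, 3.79 and 3.48 in isoniazid animals, a fall of 2.24 (SE 0.40, adjusted p = 6.21e-05). The Ifit1 levels of 3.79 and 3.48 lie below the array medians and were not shown to be above background. Rsad2, which makes an antiviral nucleotide, fell 3.40-fold, from 7.50, 7.24, 8.05 and 8.06 to 5.98, 6.32, 5.73 and 5.75. Both effects were the lowest of the 31 strains, though neither difference from the other strains passed (adjusted p = 0.0978 and 0.17). Iigp1, a GTPase that attacks parasite vacuoles, fell from 10.30, 10.48, 10.43 and 10.80 to 9.37, 9.26, 9.15 and 9.01. Bst2, which tethers budding virus, fell by 0.73 and lost its call without isoniazid animal 2.

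The list had a mean level of 6.28, 6.15, 6.50 and 6.76 in the vehicle animals and 5.63, 5.64, 5.53 and 5.53 in the isoniazid animals, so here animal 2 did not stand apart. Its 4 vehicle animals were the more spread group, with an SD of 0.27 against 0.06. Without animal 2 the median was -0.84, and 3 genes passed in the smaller group. Without the narrow-spread arrays 14 passed, as in the fit of the 8 arrays alone. T and NK cell markers moved alongside: 10 of the 11 measured were below 0 with a median of -0.39, 0 of the 11 passed (4 at an unadjusted p under 0.05), and their summed level on the linear scale was 208 to 233 in vehicle and 170.2 to 187 in isoniazid animals. The mean log2 level of these markers was 4.03 in vehicle and 3.74 in isoniazid animals. Such levels lie within or below the array medians and were not shown to be above background. The part of these markers in the fall of the interferon genes was not tested.

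The promoters of Ifit1 and Rsad2 hold the interferon-stimulated response element, shown in the same format with matches to a pair of GAAA runs with 2 bases of any kind between them, on either strand, in capitals. The Ifit1 window, chr19:34640639-34640938 on the plus strand, has 2 matches, and the Rsad2 window, chr12:26456403-26456702 on the minus strand, has 1.
Ifit1: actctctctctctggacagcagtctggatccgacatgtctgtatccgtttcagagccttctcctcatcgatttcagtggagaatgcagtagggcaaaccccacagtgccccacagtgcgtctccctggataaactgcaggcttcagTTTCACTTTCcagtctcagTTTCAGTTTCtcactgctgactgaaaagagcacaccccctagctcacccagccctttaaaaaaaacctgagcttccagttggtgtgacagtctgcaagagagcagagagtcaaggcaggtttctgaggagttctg
Rsad2: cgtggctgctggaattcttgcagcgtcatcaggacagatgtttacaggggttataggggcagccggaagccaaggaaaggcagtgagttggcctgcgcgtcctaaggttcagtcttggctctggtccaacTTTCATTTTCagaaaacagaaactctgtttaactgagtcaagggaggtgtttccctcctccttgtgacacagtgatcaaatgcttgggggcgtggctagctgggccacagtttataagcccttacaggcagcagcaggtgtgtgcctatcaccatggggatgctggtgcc
The element was found in 3 of the 4 members that fell and have a window (Ifit1, Rsad2 and Bst2), in 8 of the 16 that did not pass and have one, and in 1131 of all 32851 windows (3.44%). Fgf21 carries a match to TGATGNAA, the element bound by ATF4 and its relatives, in its window chr7:45615441-45615740 on the minus strand.
Fgf21: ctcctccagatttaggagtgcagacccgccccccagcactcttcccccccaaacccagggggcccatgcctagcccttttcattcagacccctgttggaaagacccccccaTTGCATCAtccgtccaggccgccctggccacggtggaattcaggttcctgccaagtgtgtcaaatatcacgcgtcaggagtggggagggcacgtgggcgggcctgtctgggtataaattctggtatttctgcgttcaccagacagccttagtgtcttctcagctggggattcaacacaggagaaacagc
Of the 2 stress response genes that rose, Fgf21 has that element in its window and Atf5 does not. The element was in 7 of 19 stress response genes that did not pass and in 3.97% of all windows.

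**Figure D4:**
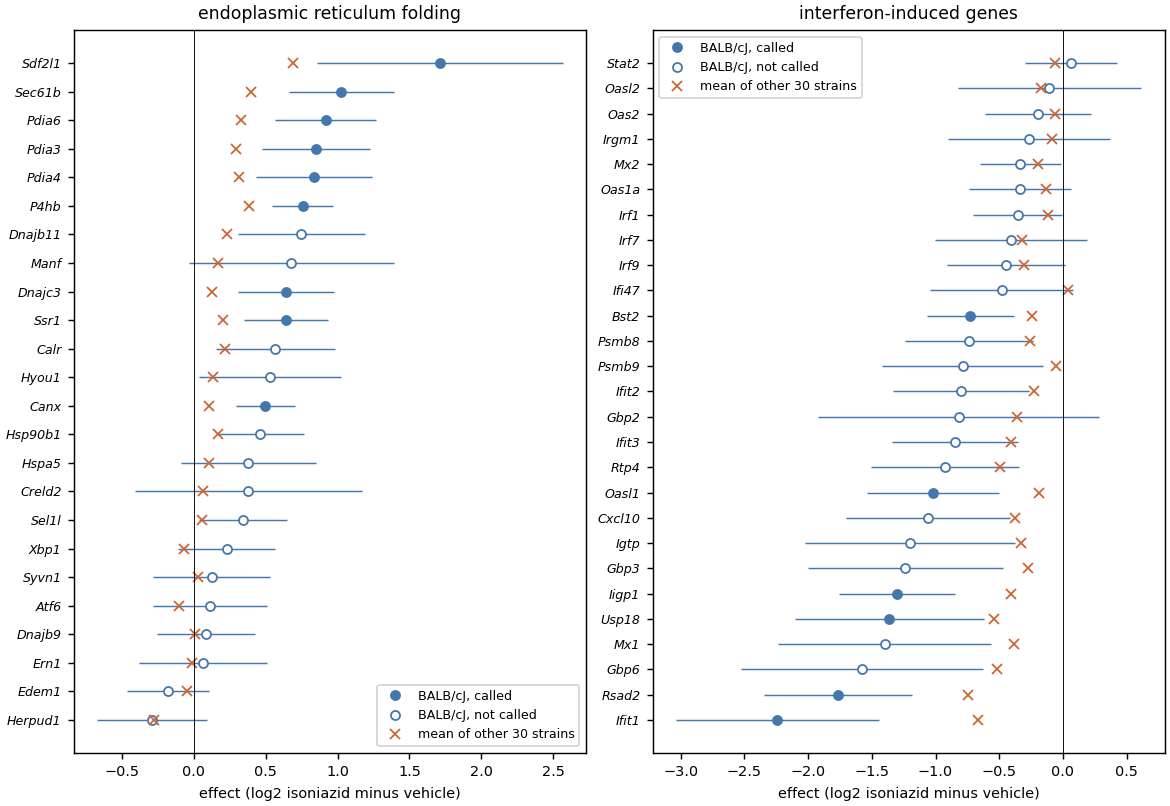
Each row is 1 gene of the folding list (left) or the interferon list (right), with the BALB/cJ effect and its 95% interval in blue, filled where it passed, and the mean effect of the other 30 strains as an orange cross. In the folding list 22 of 24 genes lie above 0 and in the interferon list 26 of 27 lie below 0.

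Few lipid storage genes passed, where 1.55% of all genes passed in either direction. Of 25 measured genes of lipid droplets, triglyceride synthesis and lipolysis, 2 rose (Cidec and Fitm2, which helps droplets form) and 1 fell (Dgat2, which makes triglyceride, by 0.43). Plin2, the main coat protein of liver droplets, was at 12.55, 13.14, 12.29 and 12.58 in isoniazid and at 11.80 to 12.18 in vehicle animals. These groups do not overlap, but the change of 0.70 missed the threshold (adjusted p = 0.0568). Among 17 measured apolipoprotein and lipoprotein assembly genes, Apoa4, Apoc2 (0.64) and Mttp, which loads lipid onto apolipoprotein B (0.45), rose and 0 fell. Without isoniazid animal 2, Fitm2 (0.40), Dgat2 (-0.38) and Mttp (0.40) no longer passed, while Cidec, Apoa4 and Apoc2 did. Of 25 PPAR alpha targets Fgf21 alone passed. Acot1, a thioesterase, was lower by 1.22 without overlap of the groups and without passing (adjusted p = 0.105), beside -1.17 in the other strains.

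Few bile acid and sterol genes passed, all of them lower, where 0.628% of all genes fell. Of 24 measured bile acid genes 3 fell and 0 rose: Cyp2c70, which makes muricholic acids in mice (-1.03, adjusted p = 0.00779), the bile salt export pump Abcb11 (-0.59) and the conjugating ligase Slc27a5 (-0.36). The call of Abcb11 was lost without any of 7 single animals. Cyp7a1, which catalyses the first step from cholesterol to bile acids, was at 9.27, 9.32, 9.68 and 8.81 in isoniazid and 9.88 to 10.56 in vehicle animals. Its effect of -1.0 was the lowest of the 31 strains, where the others had a mean of 0.30, but neither the effect nor the difference passed (adjusted p = 0.318 and 0.298). Tm7sf2, a sterol reductase, fell by 1.08 and was the only 1 of 21 cholesterol genes to pass.

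Growth hormone and thyroid axis genes gave 4 falls among 17 measured: Thrsp, Dio1, Igfals, which holds IGF1 in the circulation (-1.21), and the growth hormone receptor Ghr (-0.52). Without isoniazid animal 2, Thrsp passed (-2.24) and the other 3 did not, with Igfals at -0.88. The shares of all genes are 0.926% that rose and 0.628% that fell. Prodh, the first step of proline breakdown, fell from between 9.28 and 9.51 to 7.88, 8.01, 8.71 and 8.22 (-1.18, adjusted p = 5.44e-06). Pgd and Srxn1, which supply NADPH and repair oxidised peroxiredoxins, were the 2 of 21 NRF2 and glutathione genes that rose, by 0.88 and 0.94. Animal 2 was the highest for both, at 9.71 and 9.29, and for Srxn1 isoniazid animal 3 (6.77) lay among the vehicle animals (6.51 to 6.95). Without animal 2 neither passed.

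Where 0.926% of all genes rose and 0.628% fell, sugar metabolism gave 1 rise and 2 falls among 21 measured genes. Beside Tkfc these were the fructose transporter Slc2a5, which fell by 0.73 and had the lowest effect of the 31 strains, and Pygl, the liver glycogen phosphorylase, which fell by 0.56. Without isoniazid animal 2 none of these 3 passed by limma, with Tkfc at 0.99, Slc2a5 at -0.65 and Pygl at -0.41 (adjusted p = 0.104, 0.144 and 0.444), and the calls of Slc2a5 and Pygl were each lost without any of 5 single animals. Pygl and Psat1 were also the 2 of 29 genes of vitamin B6 metabolism and B6-dependent enzymes that passed. Isoniazid is known to react with pyridoxal phosphate, the active form of this vitamin. Pdxk, the kinase that makes it, was at 9.0 to 9.32 in isoniazid and 9.32 to 9.67 in vehicle animals, a change of -0.35 that did not pass (adjusted p = 0.277), and the median of the list was -0.10 against 0.04 in the other strains.

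Single genes passed in several further lists, where 1.55% of all genes passed in either direction. Of 28 acute phase genes Saa4, a constitutive serum amyloid protein, fell by 0.93. Of 18 circadian genes Usp2, a clock-controlled deubiquitinase, fell by 1.04, where the other strains had a mean near 0 and ran from -1.26 to 1.21. Of 20 cell cycle genes Ccnb2, a mitotic cyclin, fell by 1.12 with overlap of the groups. Its vehicle animals lay between 2.84 and 5.26, the highest mean of the 31 strains. The means of Ccnb2, 3.80 in vehicle and 2.68 in isoniazid animals, lie below the array medians and were not shown to be above background. These 3 calls were each lost without any of 5 or more of the 8 animals. In 19 zonation genes Cyp2f2 fell, in 14 tubulin and cytoskeleton genes Tubb2a rose, and in 14 lipid uptake genes Slc27a5, also in the bile acid list, fell.

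No gene passed among 23 CAR and PXR genes, 9 AHR genes, 19 glutathione S-transferases, 15 heme genes, 30 oxidative phosphorylation genes, 18 p53 targets, 14 heat shock genes or 20 immediate early genes at an adjusted p under 0.05 by limma. Counts at an unadjusted p under 0.05 in these lists were 3, 0, 3, 5, 5, 0, 2 and 3 in the same order. Cyp3a44 and the mitochondrial chaperone Hspa9, which both rose, are not members of the CAR and PXR list or the heat shock list. Alas1, the rate-limiting enzyme of heme synthesis, was at 12.07, 12.15, 12.73 and 12.73 against 11.54 to 12.05, a change of 0.70 beside 0.80 in the other strains (adjusted p = 0.376). In the list for isoniazid acetylation, hydrolysis and oxidation, Nat1 and Nat2 had changes of 0.11 and 0.14 and the oxidase Cyp2e1 one of -0.05. None of these passed, while the carboxylesterase Ces2e fell by 0.75, a call lost without any of 4 single animals. The list also holds genes such as Nat8, Faah, Afmid and further carboxylesterases, whose action on isoniazid was not tested. Of its 14 measured genes 12 were below 0, with a median of -0.46 against -0.13 in the other strains. Csad of taurine synthesis, lowered by a mean of -1.42 in the other strains, was at -0.50 in BALB/cJ without passing (adjusted p = 0.786), and the difference of 0.92 did not pass either (adjusted p = 0.632).

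The effect in BALB/cJ differed from the mean of the other 30 strains for 23 genes (0.127%), higher for 9 (0.0496%) and lower for 14 (0.0772%), by limma with animals as replicates. The 9 are Psat1, Atf5, Pabpn1, Sec61a1, Hspa9, Eef1b2, Amy1, Srp9 and Rps3a1. The 14 are Thrsp, Hsd3b5, Dct, Upp2, C730036E19Rik, S100g, Nat8f1, Fhit, Cyp2f2, Eif4a2, Cyb5r3, Pigr, Slc2a4 and Sqor, of which the last 4 fell outside the naming rule and were named after their values were seen.

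S100g, a small calcium-binding protein, had the smallest p of the 23. It was at 4.86, 4.49, 5.04 and 5.34 in vehicle animals, the highest mean of the 31 strains, where the others had a mean of 2.47, and at 3.64, 3.80, 3.76 and 3.37 in isoniazid animals. The effect of -1.29 lay outside the range of the other strains, -0.28 to 0.69, and the difference was -1.45 (SE 0.22, adjusted p = 1.09e-05). The vehicle mean of the others and the isoniazid levels of BALB/cJ lie below the BALB/cJ array medians and were not shown to be above background. S100g thus had less room to fall in the other strains, and the part of this in the difference was not tested. Pigr, the receptor that carries immunoglobulin A into bile, fell from 12.10, 12.29, 12.11 and 12.35 to 11.35, 11.22, 11.39 and 11.28, with a difference from the other strains of -0.67 (adjusted p = 1.31e-05).

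Pabpn1, which sets the length of poly(A) tails, rose by 0.78 and differed by 0.66 (adjusted p = 0.000222), with isoniazid animals at 10.56 to 10.80 and vehicle animals at 9.73 to 10.13. Its effect and that of the mitochondrial chaperone Hspa9 (0.64) were the highest of the 31 strains. The 5 probe sets of Hspa9 ran from -0.30 to 0.92. With their mean its difference did not pass (0.36, adjusted p = 0.133, limma). Thrsp had the largest negative difference, -2.85 (SE 0.53, adjusted p = 0.000596), and Dct, near 0 on average elsewhere (-0.04), had one of -2.12. Eif4a2, an RNA helicase of translation initiation, was tight in isoniazid animals, at 9.01, 9.03, 8.99 and 9.07, and fell by 1.07. Cyp2f2, a cytochrome P450 of periportal liver cells, fell by 0.92, with a difference of -0.82. Slc2a4, the insulin-regulated glucose transporter, fell by 0.77 on the probe set used, while its second probe set gave 0.19.

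Fhit, a hydrolase of dinucleoside polyphosphates, differed from the other strains without passing within BALB/cJ. Its BALB/cJ effect was -0.49 (adjusted p = 0.286), the lowest of the 31 strains, and the other strains had a mean of 0.36. Against the spread between strains, with BALB/cJ as 1 strain against 30, S100g alone passed (0.00551% of genes, adjusted p = 0.0056), so for the other 22 the difference exceeds the spread between animals but was not shown to exceed that between strains. Against the other 12 steatosis strains 11 of the 23 passed. Leaving out vehicle animal 2, 3 or 4 or isoniazid animal 2 or 4 gave 13, 12, 13, 12 and 11 genes. Without isoniazid animal 2 the differences that no longer passed were those of Psat1, Sec61a1, Hspa9, Eef1b2, Srp9, Rps3a1, Upp2, Nat8f1, Fhit, Cyb5r3 and Sqor.

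**Figure D5:**
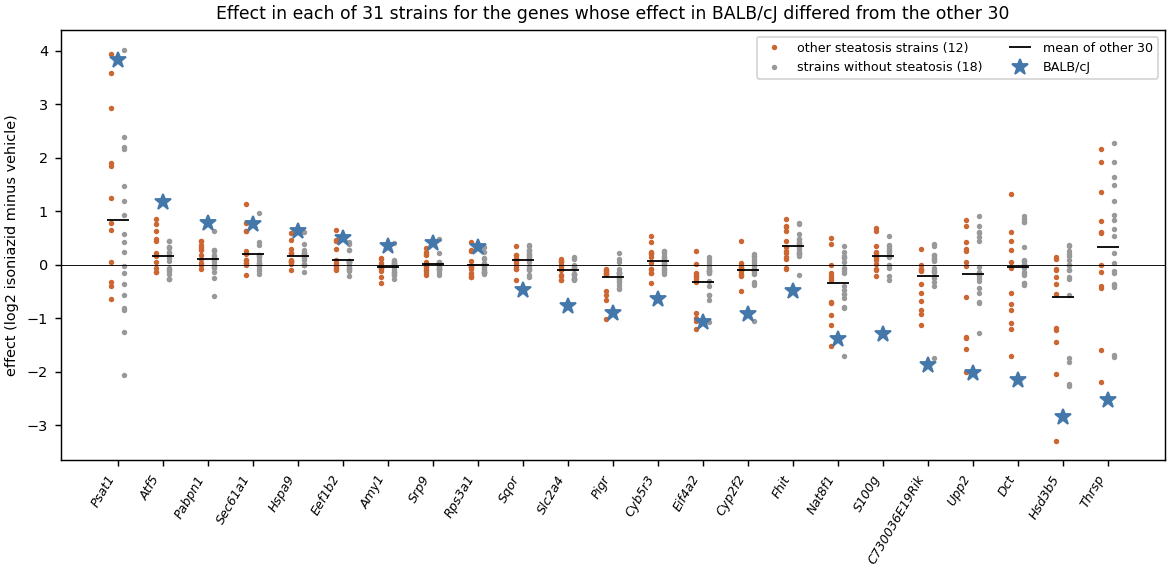
For each of the 23 genes the effect in BALB/cJ (star), in the other 12 steatosis strains (orange), in the 18 strains without steatosis (grey) and the mean of the other 30 (bar) are plotted as log2 isoniazid minus vehicle. For S100g the star at -1.29 lies below all other strains, while for Psat1 other strains reach 4.02.

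Markers of other liver cells gave no call by limma at an adjusted p under 0.05. In addition to the T and NK list, 0 genes passed among 15 macrophage, 14 endothelial, 11 stellate, 7 bile duct, 9 B cell, 9 neutrophil and 4 red cell markers or 9 markers of pancreas, fat and muscle. Their medians ran from -0.16 to 0.10, and the numbers below 0 were 10, 7, 5, 6, 7, 8, 2 and 6 in that order. The bile duct markers had mean log2 levels of 3.86 in vehicle and 3.75 in isoniazid animals. These lie below the array medians and were not shown to be above background. The summed level of the bile duct markers was 117 to 126 in vehicle and 106 to 109.8 in isoniazid animals, without overlap. That of the 4 red cell markers was 195 to 240.5 and 140.1 to 188, also without overlap. Macrophage markers overlapped, at 2207 to 3392 and 2314 to 3305. At an unadjusted p under 0.05 there was 1 endothelial and 1 red cell marker, and 0 in the other 6 of these lists. RMA assigns no zeros, so no marker was at 0. Their part in the results above was not tested.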

How the data were processed

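Liver RNA of 235 animals was hybridised to an Affymetrix mouse genome array, 1 per animal. The deposited values are log2 RMA summaries, made with Affymetrix Power Tools as named in the submitters' processing notes. Its version is not given in the sources used here. The values ran from 1.15 to 14.65 over 44721 probe sets, of which 34717 have 1 gene symbol, 872 have several and were not used, and 60 are controls. Symbols came from the platform annotation, updated through Entrez numbers. Each of 18146 genes was represented by the probe set of highest average level; 8949 genes had several. Microarray precision is limited here by the number of arrays, 4 in each BALB/cJ group.

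A linear model with a mean for each of the 62 strain and treatment groups was fitted to all 235 arrays (R 4.3.3, limma 3.58.1), so that BALB/cJ shared an estimate of the spread with 173 residual degrees of freedom. Contrasts were the BALB/cJ effect and that effect minus the mean effect of the other 30 strains. Both use the same 8 BALB/cJ arrays. P-values were adjusted by Benjamini and Hochberg over all 18146 genes, with a threshold of 0.05, and measure the spread between animals. The fit was tested on simulated data with known changes. Alternatives were the 8 arrays alone, scan date, median centring, mean of probe sets, a dim-gene filter, trend and robust settings, the replicate block, a 1.5-fold minimum, other strain sets, the strain as replicate and leaving out each animal.

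The members and gene lists were chosen with earlier results of these data known, and the lists of translocon, oligosaccharyltransferase, COPI, COPII and Nat8 genes were added after their values were seen. The 41 other lists had 807 entries, of which 734 were measured. Named genes were the 12 largest rises and 12 largest falls with no overlap of animals, the 10 largest differences in each direction, the 4 list members with the largest test statistic and a set of genes of drug, lipid and stress response; other list members are named where they passed. Promoter windows came from RefSeq (GRCm38.p6), and 230 of the 282 called genes had one.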

Additional observations from a re-analysis of the deposited data

Results flagged for a closer look

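Each group of 4 BALB/cJ animals was examined for a single animal far from the other 3, by the gap to its neighbour over the whole range, for the 195 named genes. Of 390 groups 18 had such an animal (4.62%), and chance gives about 5%. Isoniazid animal 2 was the separate animal in 8 of the 18. It was above the other 3 for Cyp2c70 (10.88), Gadd45b (8.26) and Psma6 (11.34) and below them for Ces2a (10.89), Fah (11.57), Per3 (5.0), Ccna2 (3.26) and Eng (7.03). Among the other isoniazid animals, animal 4 was low for Vldlr (5.27) and animal 3 was high for Bhmt2 (12.21). Among vehicle animals, animal 4 was high for Fitm2 (8.24) and Acaa1b (14.07), animal 1 was high for Fabp4 (6.82) and low for Igfals (8.47), animal 2 was high for Apoc2 (11.49) and low for Bst2 (8.85), and animal 3 was high for Asl (12.15) and low for Ms4a1 (2.81).

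The isoniazid effect in BALB/cJ differed from the mean effect of the other 30 strains for 23 genes in the test of that difference by limma, with animals as replicates. It was higher for Psat1 (2.98), Atf5 (1.01), Pabpn1 (0.66), Sec61a1 (0.56), Hspa9 (0.47), Eef1b2 (0.40), Amy1 (0.39), Srp9 (0.38) and Rps3a1 (0.34). It was lower for Thrsp (-2.85), Hsd3b5 (-2.25), Dct (-2.12), Upp2 (-1.85), C730036E19Rik (-1.66), S100g (-1.45), Nat8f1 (-1.04), Fhit (-0.84), Cyp2f2 (-0.82), Eif4a2 (-0.76), Cyb5r3 (-0.71), Pigr (-0.67), Slc2a4 (-0.67) and Sqor (-0.56). With the strain as replicate, S100g remained.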

How the results depend on the processing

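In the BALB/cJ effect, 282 genes passed, and the count was 177 with median-centred arrays (110 higher, 67 lower), 166 with a 1.5-fold minimum (84 higher) and 655 without the narrow-spread arrays, an alternative chosen after seeing the data (380 higher, 275 lower). The 8 arrays alone gave 173 lower genes. Leaving out 1 animal gave 94 to 311 genes, 57 to 182 higher and 37 to 129 lower. For the difference from the other strains, 23 genes passed. The count was 15 with median-centred arrays (4 higher), 1 with the strain as replicate (0 higher, 1 lower; 427 at an unadjusted p under 0.05, limma), 11 against the 12 steatosis strains (4 higher, 7 lower) and 64 without the narrow-spread arrays (30 higher, 34 lower). The higher genes numbered 5 with scan date as a term, 3 with the 1.5-fold minimum and 5 against strains with 4 isoniazid animals. Leaving out 1 animal gave 11 to 34 genes, 3 to 14 higher and 8 to 20 lower. Of the 23 differences, that of S100g alone passed in every alternative where it was run, and 0 changed sign. With the mean of probe sets the differences of Hspa9, Srp9, Sqor, Cyb5r3 and Slc2a4 did not pass. Fewer arrays or genes enter some of these fits; other causes were not tested.

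The groups share the animal numbers 1 to 4, but same-numbered animals did not deviate together (r of -0.06, 0.10, -0.13 and 0.02 over genes), not every animal correlated best with its own number, and the labels give the numbers no meaning. With the replicate block 237 genes passed for the effect, 222 of them among the 282, and 21 for the difference. The block moved neither count by over 1.5 times.

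Of 195 named genes 68 passed, and 25 of these passed in all 17 alternatives. Another 4 (Psat1, Hsd3b5, C730036E19Rik and S100g) passed in all but the dim-gene filter, which leaves them out, so they were not run there. On leaving out 1 animal, 33 lost the call, and 0 of the 68 changed sign. Among the 127 that did not pass, 10 changed sign under some alternative. With the mean of probe sets these were Ndufb8 (0.12), Hnf4a (0.048), Egfl7 (-0.020), Dcn (-0.017) and Epb42 (-0.21), and with scan date Elane (0.013). On leaving out 1 animal in turn, Col1a2 ran from -0.0083 to 0.28, Epb42 from -0.057 to 0.16, Srebf1 from -0.14 to 0.33, Cd36 from -0.31 to 0.0047 and Nat1 from -0.019 to 0.22.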

Other observations

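Some single members of the lists above stood at the edge of the 31 strains in BALB/cJ without passing either test. Cdkn1a, the cell cycle inhibitor p21, had an effect of 0.75 beside a mean of -0.67 in the other strains, second highest of the 31, with isoniazid animal 2 at 8.43 and the other isoniazid animals at 6.54 to 7.08 (adjusted p = 0.63). Lyve1, a marker of sinusoidal endothelium, had an effect of 0.80 without overlap of the groups, the highest of the 31 strains, where the others had a mean of -0.08 (adjusted p = 0.208). Of the 14 endothelial markers measured, 7 were above and 7 below 0, with a median of 0.07. No overlap of the groups held for 11.0% of all genes. Hsd17b13, a lipid droplet enzyme, was at 11.68 to 11.79 in vehicle and 12.04 to 12.54 in isoniazid animals, an effect of 0.46 and again the highest of the 31 (adjusted p = 0.154). Hpx, which binds free heme in plasma, had an effect of 0.25, also the highest of the 31 (adjusted p = 0.0687).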
